A study of Homo sapiens with 22 samples.

Results

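The genes described here are 46 genes of the mitotic spindle and of the passage from G2 into mitosis, among 19775 genes measured. They were taken from a list of names whose rule uses no measured value, although the list was drawn up with earlier results of these data known, and each gene was read from its brightest probeset that names a single gene. The measurements came from 22 expression arrays of 11 human neuroblastoma cell lines, each cultured for 18 hrs under normoxia (20% O2) or hypoxia (1% O2), with 1 array per line and condition. The lines were GI-LI-N, ACN, SK-N-BE2(C), IMR-32, SK-N-F1, LAN-1, SK-N-SH, GI-ME-N, SHEP-2 and the SHEP21N line in both of its states, labelled without MYCN overexpression (50 ng/mL tetracycline) and with MYCN overexpression (0 ng/mL). SHEP21N is a SHEP derivative whose MYCN transgene is shut off by tetracycline, so the 3 SHEP lines share an origin, and the methods give them a provider of their own. No line had a replicate array, hence the spread behind every test of hypoxia is that among cell lines. The 11 lines are not 11 independent genomes, as both SHEP21N states are the same line and SHEP-2 is related to it. A trio of other lines, described below, also had closely similar profiles. Tests and counts over the 11 lines nevertheless treat each line as independent.

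Signals are given as multiples of the median signal of their own array, and differences as log2 of hypoxia over normoxia within a line, where -1 is a halving. The arrays had median signals from 69.4 to 133.6. Of 9 hypoxia-induced reference genes, 8 rose past the adjusted threshold, with a median log2 difference of 2.12. The 8 genes were BNIP3 at 1.88, PDK1 at 2.12, VEGFA at 1.99, NDRG1 at 2.30, ALDOC at 2.30, PFKFB4 at 2.24, ANKRD37 at 1.70 and DDIT4 at 2.33, whereas ADM, the vasodilator peptide adrenomedullin, had 1.81 with a limma adjusted p of 0.063. The SHEP21N array labelled with MYCN overexpression in normoxia stood apart, with ratios of 3′ to 5′ probe signal of 67.3 for GAPDH and 94.0 for ACTB, where the other 21 arrays had 0.94 to 1.40 for GAPDH. The ACTB ratios of the other 3 SHEP21N arrays, 5.05 in normoxia and 2.70 in hypoxia in the state labelled without MYCN overexpression and 2.85 in hypoxia in the other state, also lay above the 1.18 to 2.54 of the 18 arrays of other lines. The MYCN signals did not bear out the label on the normoxic array of the state with MYCN overexpression. There the brightest MYCN probeset read 19.0 and the next one 13.7, against 6.0 and 28.7 on the normoxic array of the other state. The hypoxic array of the state labelled with overexpression read 6.0 and 830.2, against 12.7 and 25.3 in the state labelled without it. At the 3′ to 5′ ratios of that normoxic array, low signal and low MYCN cannot be told apart. The summed signal of 6 neuroblast markers was 111 to 3939 on the arrays of ACN, GI-ME-N and the SHEP lines. On those of the other 6 lines it was 24740 to 63048. PHOX2A, a regulator of the sympathetic lineage, was 10.4 to 145 against 6168 to 21953. Of the same 6 markers TH overlapped, at 4.0 to 23.5 against 2.75 to 7202. The summed signal of 8 mesenchymal-state markers was 62151 to 167626 against 15519 to 51422, but not every marker followed the sum, as TWIST1 was 1333 to 4690 against 2750 to 12284 and COL1A1 in ACN was 4.16 and 52.6, below the 107 to 2663 of the other 6 lines. The normoxic arrays of SK-N-SH, GI-LI-N and IMR-32 correlated at 0.937 to 0.948 over 12519 genes, above all 49 pairs outside this trio and the SHEP lines (0.554 to 0.862), and the trio was therefore also averaged. The arrays labelled SK-N-SH, known as a line without MYCN amplification, read 33504 and 35223 on the brightest MYCN probeset, within the 33350 to 44726 of GI-LI-N, IMR-32 and LAN-1.

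Entry into mitosis is driven by the kinase CDK1 bound to a B-type cyclin, activated by CDC25 phosphatases, while polo-like and Aurora kinases mature the centrosomes and the spindle. Kinetochores built on centromeric chromatin attach chromosomes to spindle microtubules, and the spindle checkpoint holds the ubiquitin ligase APC/C inactive until attachment is complete. Most of these genes are transcribed in G2 and mitosis under the control of FOXM1, B-MYB and the MuvB core, which contacts the cell cycle homology region (CHR), and of NF-Y, which binds CCAAT boxes, and they are widely used as markers of cycling cells. In whole cultures, fewer mitotic cells and less of an RNA per cell cannot be told apart.

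The shared promoter letters of the genes are shown first, because they are a feature that the choice of members did not use. The 130 bases before the RefSeq start (GRCh38.p14) of cyclin B1, cyclin B2, the polo-like kinase PLK1 and the kinetochore gene SPC25, which had the largest difference in hypoxia, are printed 5′ to 3′ on the gene's strand, with CCAAT and CHR letters (TTTGAA or TTTAAA) in capitals. The stretches lie at chr5:69167020-69167149 (plus strand), chr15:59105016-59105145 (plus), chr16:23678759-23678888 (plus) and chr2:168890431-168890560 (minus).
CCNB1: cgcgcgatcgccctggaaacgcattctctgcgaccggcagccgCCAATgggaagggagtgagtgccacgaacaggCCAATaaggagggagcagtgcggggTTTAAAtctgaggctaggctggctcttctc
CCNB2: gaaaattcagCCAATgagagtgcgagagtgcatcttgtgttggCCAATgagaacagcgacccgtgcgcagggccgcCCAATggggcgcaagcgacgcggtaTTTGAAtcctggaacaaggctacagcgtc
PLK1: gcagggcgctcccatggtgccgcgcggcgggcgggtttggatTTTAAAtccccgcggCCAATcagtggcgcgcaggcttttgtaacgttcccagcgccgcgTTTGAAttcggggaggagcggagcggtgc
SPC25: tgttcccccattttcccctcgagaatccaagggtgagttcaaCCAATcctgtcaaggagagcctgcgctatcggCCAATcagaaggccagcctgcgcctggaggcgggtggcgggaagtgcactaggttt

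In CCNB2 the CCAAT boxes began 120, 87 and 54 bases before the start and the CHR letters 29 bases before it. CCNB1 held CCAAT at 87 and 55 bases and TTTAAA at 30 bases, and PLK1 held TTTAAA at 88, CCAAT at 73 and TTTGAA at 29 bases before the start. SPC25 held CCAAT at 88 and 56 bases, and no CHR letters lay wholly within the stretch printed. Promoters of 250 bases before to 50 after the start were given for 39 of the 46 genes, and AURKA, BIRC5, BUB3, FOXM1, TPX2, TTK and UBE2C had none in the table used. TTTGAA or TTTAAA, read on both strands, occurred in 35 of the 39 genes (89.7%) against 27.9% of 27305 genes with a promoter of this length, and CCAAT in 32 (82.1%) against 39.7%. Neither motif's letters contain the other's, and 26 genes (66.7%) held both kinds against 11.2% of all genes. TTTGAA was present in 29 genes and TTTAAA in 15. CCAAT boxes were found most often between 50 and 100 bases before the start, and CHR letters most often within the last 50 bases. A match to these letters is a description of sequence and not a measured binding site.

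**Figure D1:**
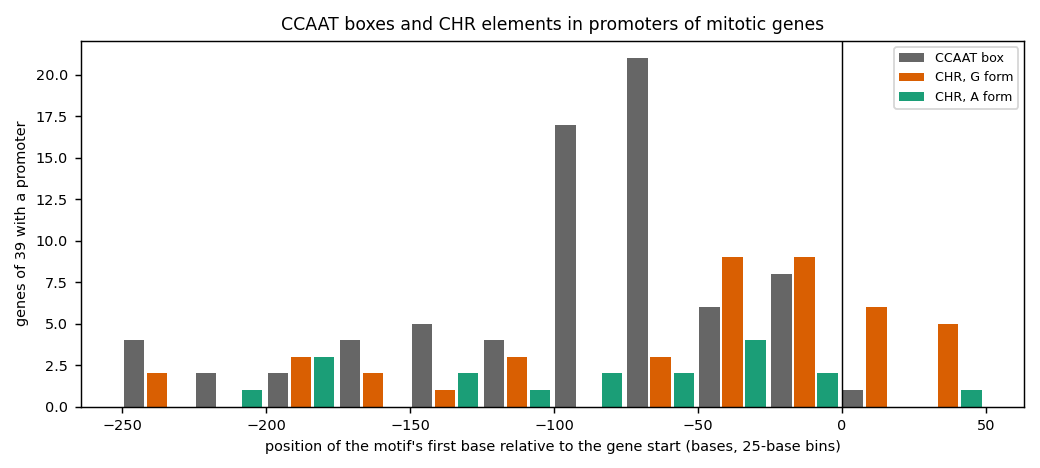
Number of mitotic genes, of 39 with a promoter, whose promoter holds a CCAAT box or a CHR element in its G form or A form (both strands), by the position of the motif's first base in 25-base bins relative to the gene start at 0. CCAAT boxes gather in the bins from 100 to 50 bases before the start and CHR elements in the last bins before the start.

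None of the 46 genes passed the adjusted threshold in hypoxia against normoxia, in a transcriptome where 0.0152% of genes were lower and 0.147% higher (limma with cell line as a block, Benjamini-Hochberg adjusted p under 0.05 over all genes). At an unadjusted p under 0.05, 6 genes were lower and 0 higher, and these 6, of the kinetochore, the kinesins and cytokinesis, are 13.0% of the members against a background of 7.07% lower and 3.6% higher. All 46 genes had a mean signal of at least 100, and among the 12519 genes of such signal the background was 9.03% lower and 3.88% higher. The median log2 difference of the 46 genes was -0.08, beside -0.04 over all genes, with 37 genes lower and 9 higher in the mean over lines. Of all 19775 genes, 10990 were lower in that mean. Between lines the signs varied: 5 genes were lower in at least 10 of the 11 lines and 0 were higher in as many, against 3.44% and 1.37% of all genes. The 5 genes, SPC25, CENPN, CENPK, KIF11 and TTK, are 10.9% of the members, where 4.98% of the genes of mean signal of at least 100 met this count. In the values as deposited and after quantile normalization the number was 2 in place of 5. Mean differences ran from -0.52 for SPC25 to 0.25 for PLK1, and the 95% intervals of all 46 genes lay within 2-fold either way, those of 38 within 1.5-fold. Without both SHEP21N lines, 6 genes were lower at an unadjusted p under 0.05 (background 8.47%) and 0 higher (3.81%), but KIF11 and KIF15 were not among them, and FOXM1 (-0.24) and MAD2L1 (-0.24) stood beside SPC25, CENPN, CENPK and ANLN. In those lines 9 genes were lower in at least 8 of the 9 lines, against 8% of all genes. Without SK-N-SH 7 genes were lower at that threshold and 9 in all lines but at most 1. With the trio averaged into 1 line these counts were 4 and 10. The shares over all genes were not worked out for these settings or for the other scalings.

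**Figure D2:**
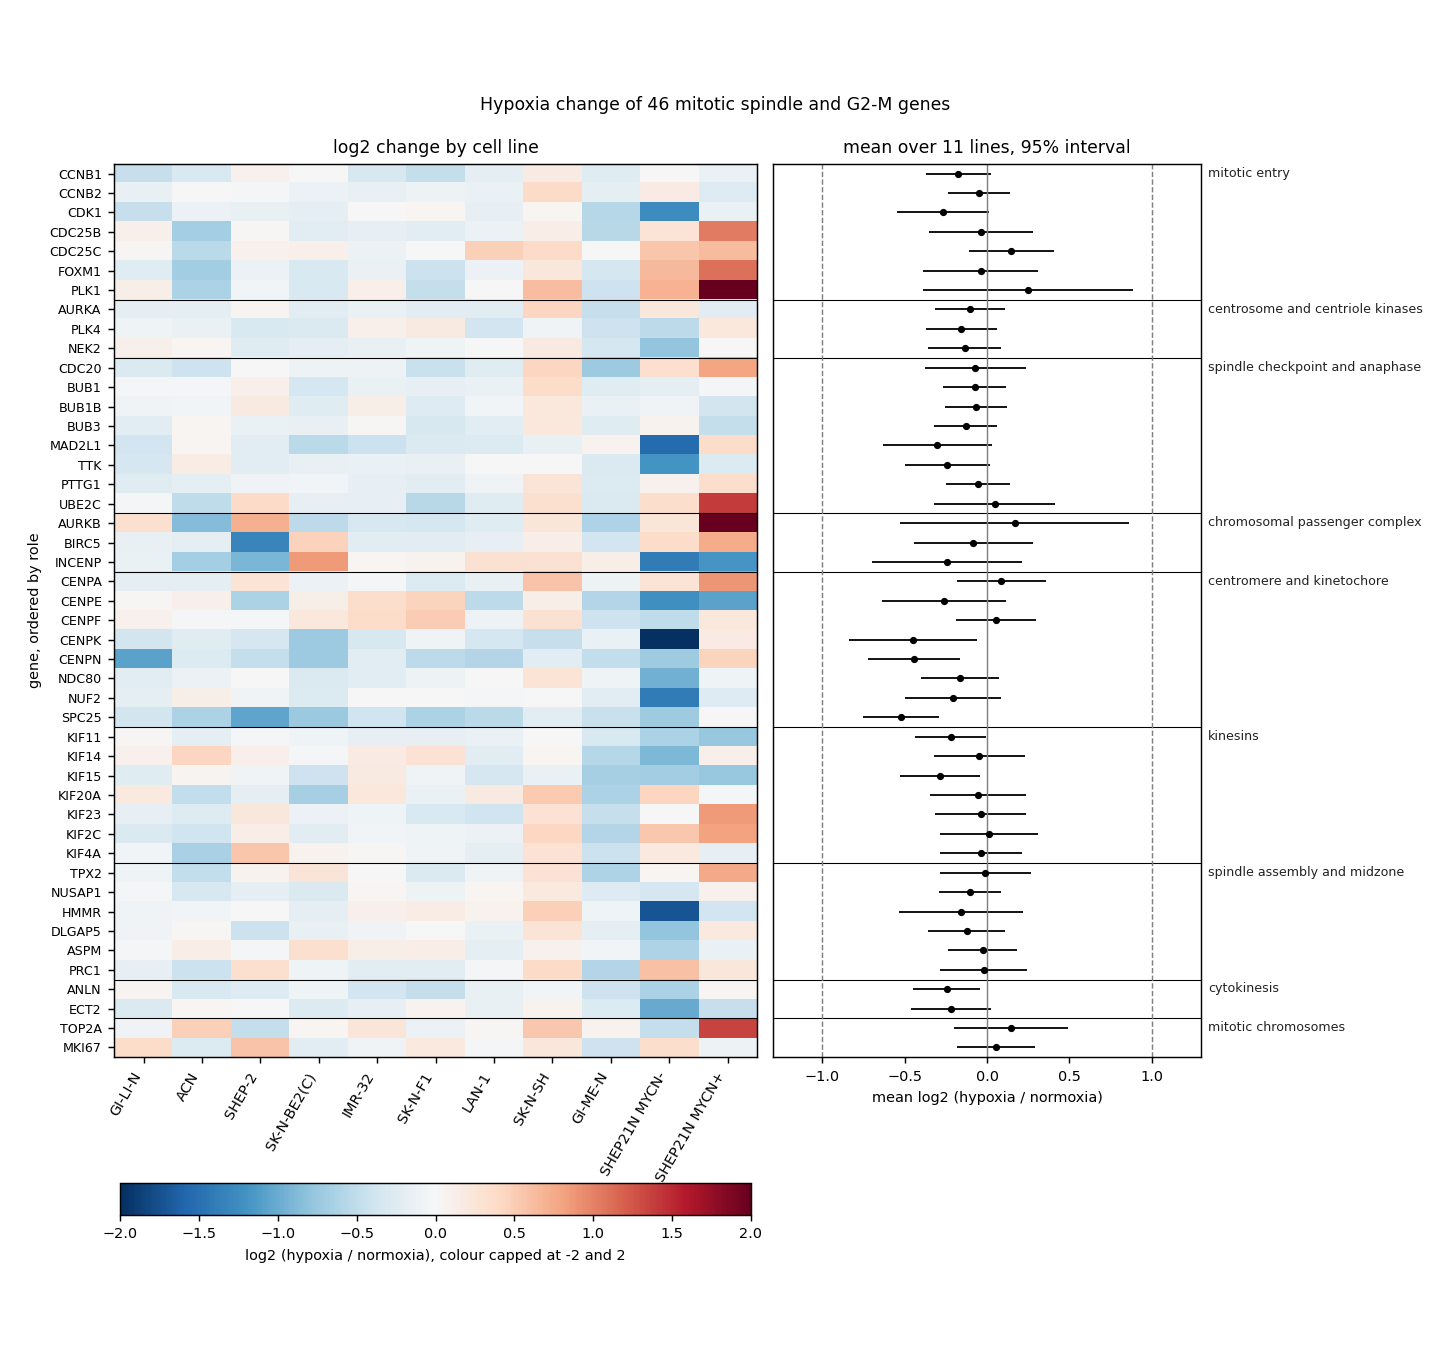
Left, log2 of hypoxia over normoxia for each of the 46 genes (rows, grouped by role) in each of the 11 lines (columns; MYCN- and MYCN+ mark the SHEP21N line labelled without and with MYCN overexpression), blue for lower and red for higher, capped at 2 either way. Right, the mean over the 11 lines with its 95% interval from limma, with dashed lines at 2-fold; SPC25 lies farthest to the left at -0.52, and the strongest colours are in the last 2 columns.

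Of the 8 genes of the centromere and kinetochore, 3 (37.5%) were lower and 0 higher at an unadjusted p under 0.05. The background was 7.07% lower over all genes and 9.03% among genes of mean signal of at least 100. The median was -0.23, with 6 lower and 2 higher in the mean. SPC25, a subunit of the NDC80 complex that binds microtubules, had normoxic levels of 8.86 in SHEP-2, 18.4 in the median line and 25.1 in LAN-1, and hypoxic levels of 4.25 in SHEP-2, 13.3 in the median line and 18.4 in SHEP21N labelled with MYCN overexpression. The levels of the conditions overlapped across lines, but within lines SPC25 was lower in hypoxia in 11 of 11 (as were 0.662% of all genes), from -1.06 in SHEP-2 to -0.00 in SHEP21N labelled with MYCN overexpression. The mean was -0.52 (SE 0.10, 0.70-fold, 95% interval -0.75 to -0.29), with a limma adjusted p of 0.106. This gene passed the adjusted threshold when only genes with a mean signal of at least 100 were tested (adjusted p = 0.030), with signals under 50 set to 50 (0.021) and by the t-test that the methods name, run here over all genes, paired by line and without their selection of 2-fold changes (0.036), and leaving out 1 line at a time gave limma adjusted p values from 0.059 to 0.25. CENPN, which recognises the centromeric nucleosome, ranged from 7.69 in IMR-32 to 113.3 in LAN-1 in normoxia (median 19.7) and from 5.97 in GI-LI-N to 75.6 in LAN-1 in hypoxia (median 13.7). It was lower in 10 of 11 lines, with -1.07 in GI-LI-N at one end and 0.44 in SHEP21N labelled with MYCN overexpression at the other. Its mean was -0.44 (SE 0.13, limma adjusted p = 0.253), and -0.51 and lower in 9 of 9 lines without the SHEP21N lines.

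CENPK, a subunit of the constitutive centromere network, had normoxic levels of 10.4 to 47.2 (median 20.9) and hypoxic levels of 5.26 to 37.1 (median 16.0), the highest of both in LAN-1. Its mean was -0.45 (SE 0.18, limma adjusted p = 0.403), and its lowest value of -2.09 in SHEP21N without MYCN overexpression lay far from the next line, SK-N-BE2(C), at -0.73. Without both SHEP21N lines it was -0.34 and lower in 9 of 9. The partners of SPC25 in the NDC80 complex had smaller values, -0.16 for NDC80 and -0.21 for NUF2, and without the SHEP21N lines -0.08 and -0.07. NDC80 lay at 15.1 to 39.7 in normoxia (median 24.7) and 12.4 to 48.1 in hypoxia (median 19.6), with SK-N-BE2(C) lowest and SK-N-SH highest in both. CENPE, a kinesin motor of the kinetochore, had a mean of -0.26 made of 5 lower and 6 higher lines. CENPF, a large kinetochore protein of G2, had 0.05 and the centromeric histone CENPA had 0.09. CENPA was -0.02 without the SHEP21N lines.

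**Figure D3:**
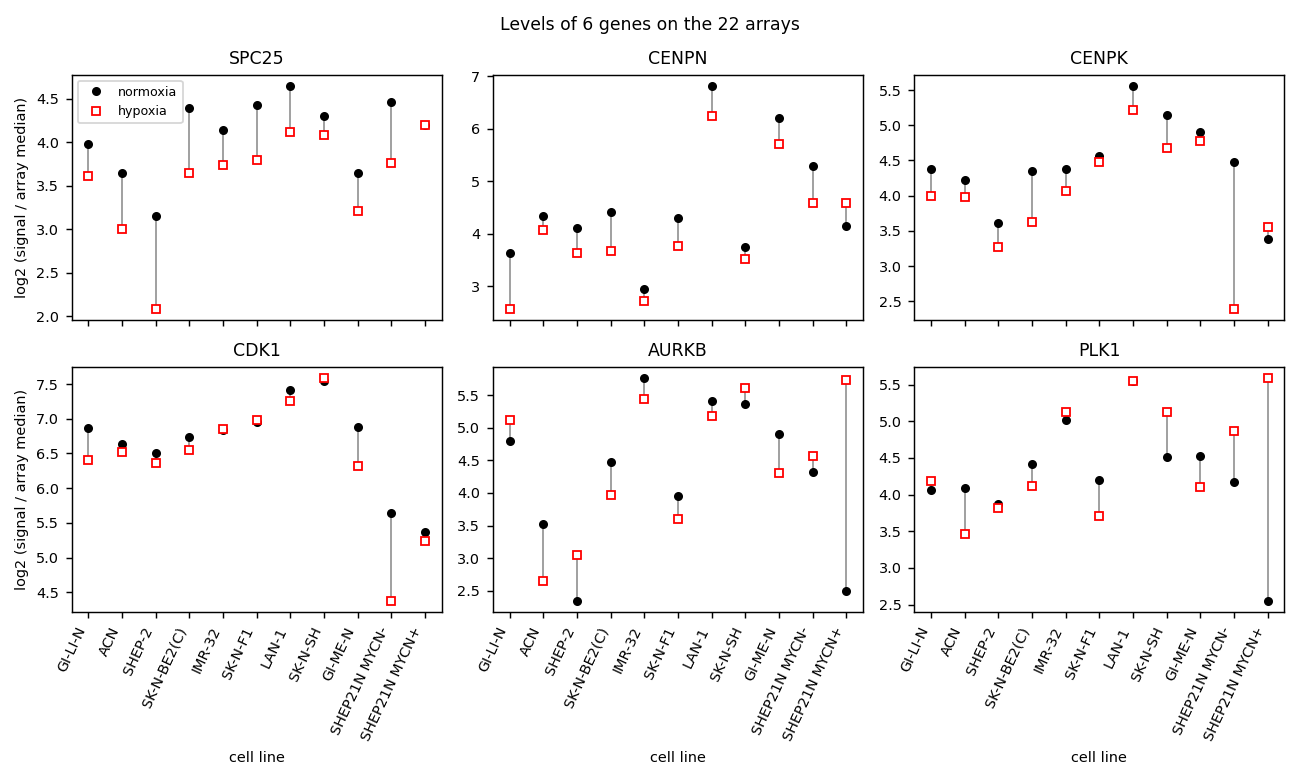
Levels of SPC25, CENPN, CENPK, CDK1, AURKB and PLK1 as log2 of signal over the array median (vertical axis) on each of the 22 arrays, by cell line; black circles are normoxia, open red squares hypoxia, and a grey line joins the pair. SPC25 is lower in hypoxia in every line, while AURKB and PLK1 have their widest pair in SHEP21N labelled with MYCN overexpression (MYCN+).

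Of the 7 genes of mitotic entry, 0 had an unadjusted p under 0.05, and their median difference was -0.04. CDK1, the kinase that drives mitosis, had normoxic levels of 41.2 in SHEP21N labelled with MYCN overexpression, 114.9 in the median line and 187.0 in SK-N-SH. In hypoxia it had 20.7 in SHEP21N without MYCN overexpression, 91.8 in the median line and 192.2 in SK-N-SH. The conditions overlapped, and the mean of -0.27 (SE 0.13, limma adjusted p = 0.483) became -0.17 without both SHEP21N lines. CCNB1, its cyclin partner, ranged from 55.3 to 214.5 in normoxia (median 105.2) and from 56.4 to 186.8 in hypoxia (median 90.2), with LAN-1 highest in both and a mean of -0.17 (SE 0.09). CCNB1 was lower in 9 of 11 lines. FOXM1, the transcription factor of G2-M genes, had a mean of -0.04, lowest in ACN (-0.70) and highest in SHEP21N labelled with MYCN overexpression (1.11), and without both SHEP21N lines -0.24. PLK1 had a mean of 0.25 (SE 0.29) that turned to -0.11 without both SHEP21N lines, and the phosphatase CDC25C had 0.15. CCNB2 (-0.05) and CDC25B (-0.04) differed by less than their SE.

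The centrosome and centriole kinases had means of -0.11 for AURKA, -0.16 for PLK4, the kinase of centriole duplication, and -0.14 for NEK2, which parts the centrosomes, and 0 of 3 had an unadjusted p under 0.05. AURKA was highest in SHEP21N labelled with MYCN overexpression in both conditions, at 101.3 in normoxia and 86.5 in hypoxia, against medians of 44.0 and 44.5. Among the 8 genes of the spindle checkpoint and anaphase, 0 had an unadjusted p under 0.05 and 7 were lower in the mean. MAD2L1, the inhibitor of APC/C at the checkpoint, had -0.30 (SE 0.15) and the checkpoint kinase TTK -0.24 (SE 0.12, lower in 10 of 11 lines), values that were -0.24 and -0.13 without both SHEP21N lines. BUB1 at -0.08, BUB1B at -0.07, BUB3 at -0.13, CDC20, the activator of APC/C, at -0.07 and securin (PTTG1) at -0.05 all had intervals that include 0. UBE2C, the ubiquitin-conjugating enzyme of APC/C, had 0.05, and -0.14 without both SHEP21N lines.

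The chromosomal passenger complex corrects wrong attachments. AURKB, its kinase, had normoxic levels of 5.08 in SHEP-2, 22.3 in the median line and 54.2 in IMR-32, and hypoxic levels of 6.28 in ACN, 23.7 in the median line and 53.0 in SHEP21N labelled with MYCN overexpression. Its mean of 0.17 had an SE of 0.32, the largest of the 46 genes, and was -0.18 without both SHEP21N lines. The difference was 3.23 in SHEP21N labelled with MYCN overexpression, whose normoxic array had the high 3′ to 5′ ratios. Outside the SHEP21N lines it ran from -0.87 in ACN to 0.71 in SHEP-2. BIRC5 (survivin) had -0.08 and ranged from -1.32 in SHEP-2 to 0.75 in SHEP21N labelled with MYCN overexpression, and its signal was 7.07 in SHEP-2 and 125.4 in IMR-32 in normoxia. The scaffold INCENP had the dimmest probeset of the 46, with a mean signal of 169, and its -0.24 became -0.01 without both SHEP21N lines and -0.02 with signals under 50 set to 50.

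Of the 7 kinesins 2 (28.6%) were lower at an unadjusted p under 0.05, against 7.07% of all genes and 9.03% of those of mean signal of at least 100. KIF11, the motor that separates the spindle poles, was at -0.22 (SE 0.10, limma adjusted p = 0.462). KIF15, which acts beside it, was at -0.29 (SE 0.11, adjusted p = 0.400). KIF11 was lower in 10 of 11 lines, but outside the SHEP21N lines no value was below the -0.31 of GI-ME-N, and the mean over 9 lines was -0.11 (unadjusted p = 0.158 by limma). KIF15 was -0.19 over these 9 lines (unadjusted p = 0.102), so that 0 of the 7 kinesins had an unadjusted p under 0.05 there. The midzone motors KIF4A, KIF20A and KIF23 lay between -0.06 and -0.04, KIF14 had -0.05 and the microtubule depolymerase KIF2C 0.01. The 6 genes of spindle assembly and midzone, TPX2, NUSAP1, HMMR, DLGAP5, ASPM and PRC1, had means between -0.16 and -0.01, and 0 had an unadjusted p under 0.05. TPX2, the activator of Aurora A, and ASPM, a spindle pole protein, had -0.01 and -0.03 and turned to 0.02 and 0.00 in the values as deposited. In cytokinesis, ANLN (anillin), which organises the contractile ring, had -0.25 (SE 0.09, adjusted p = 0.383, lower in 9 of 11 lines), and ECT2, the activator of RhoA at the cleavage site, had -0.22 (SE 0.11). TOP2A, the topoisomerase of mitotic chromosomes, had 0.15 and MKI67, the proliferation marker that coats them, 0.05, both with 95% intervals that include 0.

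The list of other kinetochore and centromere genes, of which 27 of 29 were measured, held 11 genes at an unadjusted p under 0.05, 11 lower and 0 higher, with a median of -0.22. SKA3, part of the complex that holds microtubules at the outer kinetochore, had -0.57 (SE 0.12, limma adjusted p = 0.126), and CENPU had -0.45 (SE 0.11, adjusted p = 0.196). SKA1 and SKA2, the partners of SKA3, and ZWINT, ZWILCH and ZW10 of the outer kinetochore were also among the 11, as were CENPL, CENPM, CENPW and OIP5. The DNA replication genes, which act in S phase, had 10 of 24 lower and a median of -0.23, led by the polymerase subunit POLE2 (-0.54) and the ribonucleotide reductase subunit RRM2 (-0.53). The APC/C list had 5 of 16 lower, ANAPC13 (-0.33), the APC/C inhibitor FBXO5 (-0.41), ANAPC4, ANAPC7 and CDC23. Mitotic entry regulators had 4 of 17 lower, the replication licensing inhibitor GMNN (-0.38, lower in 11 of 11 lines), the kinase PBK (-0.38), CCNA2 and MASTL. Condensin, cohesin and chromatid separation genes had 3 of 20 lower, NCAPG (-0.39), ESCO2 (-0.48) and SMC2. Cell cycle transcription factors had 3 of 23 lower, the repressor E2F8 (-0.35) and the MuvB subunits LIN52 (-0.22) and LIN9. The other spindle, kinesin and cytokinesis genes had 4 of 28 lower, ARHGAP11A (-0.44), HAUS1 (-0.34), CEP55 and CKAP2, and 1 higher, NUMA1 (0.30). None of these genes passed the adjusted threshold over all genes. The shares lower at an unadjusted p under 0.05 ran from 13.0% of the cell cycle transcription factors to 41.7% of the DNA replication genes. The background was 7.07% lower over all genes and 9.03% among genes of mean signal of at least 100.

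**Figure D4:**
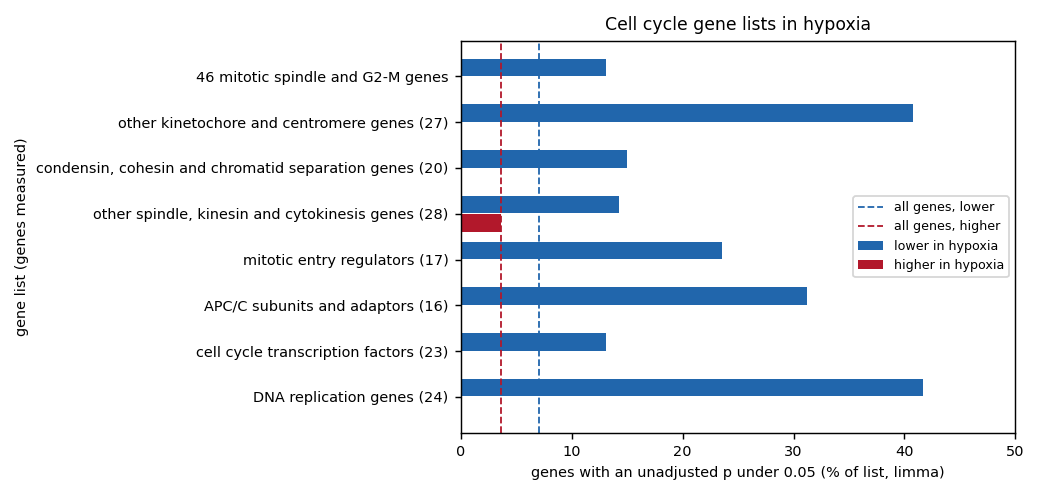
Share of each cell cycle gene list (vertical axis, number of genes measured in brackets) with an unadjusted limma p under 0.05 in hypoxia minus normoxia (horizontal axis, %), blue for lower and red for higher, with dashed lines at the share of all genes (7.07% lower, 3.6% higher). The bars for lower genes are longest for DNA replication and for the other kinetochore and centromere genes, and 13.0% for the 46 mitotic genes.

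The cell lines differed in the direction of the mitotic genes as a group. GI-ME-N had 42 of the 46 genes lower in hypoxia, with a median of -0.35 where its median over all genes was -0.18. LAN-1 had 40 lower (median -0.14, all genes -0.06) and SK-N-BE2(C) 37 (-0.17, all genes -0.11). ACN, GI-LI-N and SK-N-F1 had 34 lower each, with medians of -0.19, -0.11 and -0.14 (all genes -0.05, -0.07 and -0.14). Of all genes, 63.7% were lower in GI-ME-N, 55.4% in LAN-1 and 58.3% in SK-N-BE2(C). The shares were 53.3% in ACN, 55.1% in GI-LI-N and 60.7% in SK-N-F1. SK-N-SH went the other way, with 36 of 46 higher and a median of 0.22, where all genes had 0.12 and 38.6% of them were lower. IMR-32 and SHEP-2 had 28 lower each, with medians of -0.10 and -0.03 (all genes -0.08 and 0.08, 56.5% and 45.0% lower). SHEP21N without MYCN overexpression had 26 lower and a median of -0.27 (all genes -0.01, 50.6% lower). The pair labelled with MYCN overexpression had 21 lower, 25 higher and a median of 0.06 (all genes -0.02, 50.8% lower). Part of these shifts came with the scaling of the array: in the values as deposited the medians were -0.12 in GI-ME-N, -0.05 in LAN-1 and 0.08 in SK-N-SH, and SK-N-F1 was at -0.01. Over the 11 lines the median was below 0 in 9 lines after division by the array median, in 10 as deposited and in 9 after quantile normalization.

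Large differences of the 46 genes were gathered in the SHEP21N lines. Of 92 values there, 17 (18.5%) were beyond 2-fold. In the other 9 lines 3 of 414 (0.725%) were, CENPN in GI-LI-N and BIRC5 and SPC25 in SHEP-2. Of the 12519 genes of mean signal of at least 100, 14.2% were beyond 2-fold in SHEP21N without MYCN overexpression. In the pair labelled with it 21.9% were. In each of the other 9 lines at least 6.88% were. In SHEP21N without MYCN overexpression 9 of the 46 genes were beyond 2-fold, a larger share than this background. In the pair labelled with it 8 of the 46 were, a smaller share than its background. Pooled over the other 9 lines, the share of the 46 genes lay below the background of each line. The background shares were not worked out over all genes. In SHEP21N without MYCN overexpression 9 genes were below -1, CENPK (-2.09), the hyaluronan receptor and spindle protein HMMR (-1.73), MAD2L1 (-1.54), INCENP and NUF2 (both -1.40), CDK1 (-1.26), CENPE (-1.22), TTK (-1.20) and ECT2 (-1.01). In the pair labelled with MYCN overexpression 6 genes were above 1, AURKB at 3.23, PLK1 at 3.04, UBE2C at 1.39, TOP2A at 1.35, FOXM1 at 1.11 and CDC25B at 1.04, and INCENP and CENPE were below -1. The normoxic array of that pair is the one with 3′ to 5′ ratios of 67.3 and 94.0, and the ACTB ratios of the pair labelled without MYCN overexpression, which holds 9 of the 17 values, were 5.05 and 2.70, above the 2.54 that was the highest on the 18 arrays of other lines. The part of these ratios in the 17 values was not tested. Between the states as labelled, with minus without, the median over the members was -0.22 in normoxia (15 of 46 higher) and 0.34 in hypoxia (42 of 46 higher). Over all genes the medians were -0.08 in normoxia and 0.02 in hypoxia. Each of these contrasts sets 1 array against 1 with no test. MYCN signal stayed low on the normoxic array labelled with MYCN overexpression. At its 3′ to 5′ ratios, low signal and low MYCN cannot be told apart. The value in normoxia can therefore not be read as a contrast of MYCN levels.

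The hypoxia effect of the 3 SHEP lines was compared with that of the 8 other lines by an interaction term. None of the 46 genes passed the adjusted threshold (0.0101% of all genes did), and 10 were higher and 3 lower in SHEP at an unadjusted p under 0.05, against 7.99% and 3.72% of all genes, and 10.8% and 3.42% of those with a mean signal of at least 100. In the values as deposited the split was 5 higher and 10 lower, and after quantile normalization 5 and 11. The shares over all genes were not worked out under these scalings. Among the 10 genes higher after division by the array median, UBE2C had means of 0.71 in SHEP and -0.20 in the other lines. The difference was 0.92 (SE 0.27, limma adjusted p = 0.321). AURKB had 1.39 and -0.29, a difference of 1.68 (SE 0.54, adjusted p = 0.326). The genes lower in SHEP were INCENP (-1.17 against 0.11, difference -1.28, adjusted p = 0.241, and -0.48 with an unadjusted p of 0.100 by limma with signals under 50 set to 50), CENPE (-0.97 against 0.01, difference -0.98) and HMMR (-0.71 against 0.05, difference -0.76). Without the SHEP21N line labelled with MYCN overexpression 3 genes were higher (background 5.56%) and 7 lower (background 3.63%), and the differences were 0.57 for UBE2C and 0.77 for AURKB. Leaving out ACN, IMR-32, SK-N-F1 or GI-ME-N left 6 higher genes each, and without SHEP-2 7 were lower. These counts, too, have no share over all genes beside them. The relatedness of these lines, their provider and the making of their arrays cannot be told apart.

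In normoxia the level of the mitotic genes was highest in LAN-1 and lowest in SHEP-2. The median over the 46 genes, each centred on its own mean over arrays, was 0.94 in LAN-1, 0.58 in SK-N-SH, 0.38 in IMR-32, 0.18 in GI-ME-N, 0.15 in GI-LI-N, 0.14 in SK-N-F1, 0.08 in SK-N-BE2(C), -0.17 in both SHEP21N states, -0.39 in ACN and -0.74 in SHEP-2. LAN-1 held the highest level of 27 of the 46 genes and SHEP-2 the lowest of 21. These counts were 11 and 6 in the values as deposited and 9 and 6 after quantile normalization. SHEP21N labelled with MYCN overexpression held the lowest level of 10 genes under both of these scalings. The range of the medians, 1.69 on the log2 scale (3.22-fold), shrank to 0.75 (1.68-fold) in the values as deposited and 0.72 after quantile normalization. LAN-1 stayed highest under these scalings, but GI-ME-N became the lowest, at -0.24 and -0.28, beside -0.24 and -0.20 in SHEP-2. With 1 array per line, neighbours in this order cannot be compared with a spread.

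**Figure D5:**
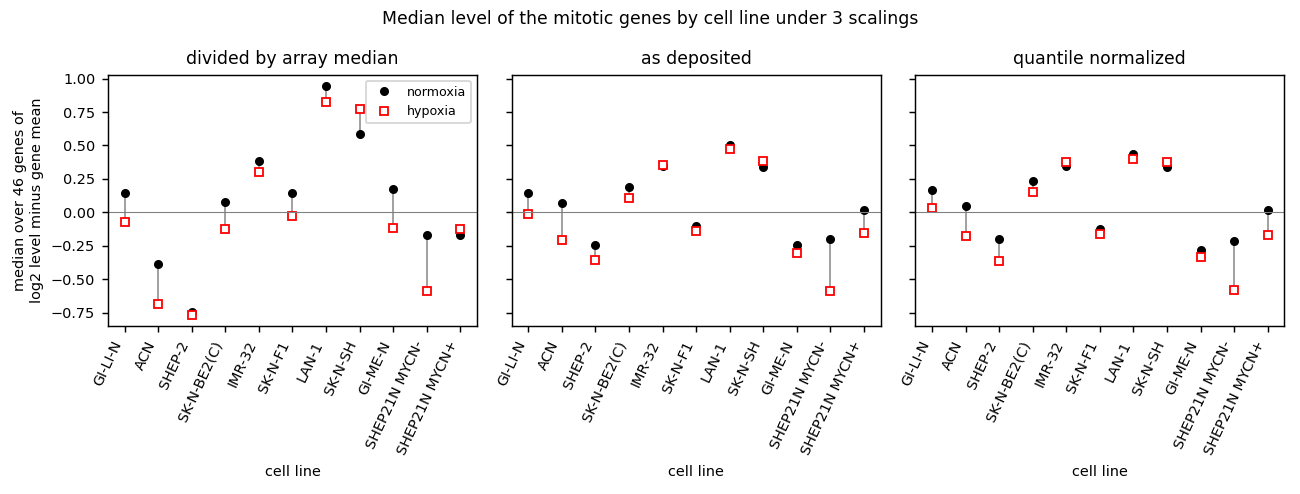
Median over the 46 mitotic genes of the log2 level minus each gene's mean over the arrays (vertical axis), by cell line, in normoxia (black circles) and hypoxia (open red squares), under 3 scalings of the same arrays. The range between lines in normoxia is 1.69 after division by the array median and 0.75 in the values as deposited, with LAN-1 highest in both.

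Single genes varied between lines by more or by less than the 3.22-fold range of the group median in normoxia. In normoxia the highest level of BIRC5 was 17.7-fold its lowest, that of CENPN 14.7-fold, that of INCENP 11.6-fold and that of PLK4 11.3-fold, whereas BUB1 stayed within 1.89-fold and KIF2C within 2.38-fold. Over the 11 normoxic arrays the level of a member correlated with the median of the other members at a median r of 0.68 (0.21 for ANLN to 0.91 for ECT2), against 0.39 for 12473 other genes of mean signal of at least 100. The hypoxia differences correlated less, at a median r of 0.40 over 11 lines against 0.24 for the other genes. Without both SHEP21N lines the median r was 0.60 against 0.29, with AURKA at 0.97. These points share the scaling of their array, and the 3 related SHEP lines and the similar trio are among them.

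Set against the 8 other lines, the 3 SHEP lines had lower normoxic levels of many mitotic genes, with a median difference of -0.61, where that of all genes was 0.02 and that of genes with a mean signal of at least 100 was -0.24. None of the 46 passed the adjusted threshold, which 0.647% of all genes did as lower and 0.743% as higher. At an unadjusted p under 0.05, 10 were lower and 0 higher, against 9.14% lower and 9.37% higher among all genes, and 13.3% and 7.1% among those of mean signal of at least 100. UBE2C had a mean log2 level of 5.14 in SHEP and 6.83 in the other lines, a difference of -1.69 (SE 0.40, limma adjusted p = 0.064). UBE2C passed the adjusted threshold with a floor of 50 on the signal (0.013), among genes of mean signal of at least 100 (0.034) and with the mean of all probesets (0.047). It also passed without ACN (0.034) or GI-ME-N (0.038). It fell short without the SHEP21N line labelled with MYCN overexpression (-1.62, limma adjusted p = 0.228), whose normoxic array had the high 3′ to 5′ ratios. INCENP differed by -1.65 (SE 0.51, adjusted p = 0.122), CENPA by -1.26 (SE 0.41, adjusted p = 0.131), KIF23, the motor of centralspindlin, by -1.43 (adjusted p = 0.142), AURKB by -1.72 (adjusted p = 0.150) and CDK1 by -1.15 (adjusted p = 0.154). PLK4, KIF15, TOP2A and FOXM1 were the other genes of the 10. Not all members were lower, as ANLN was 0.53 and KIF4A 0.44 higher in SHEP, both short of an unadjusted p of 0.05. Without the SHEP21N line labelled with MYCN overexpression 5 genes were lower at that threshold, and without ACN 18. In the values as deposited the median difference was -0.29, and quantile normalization gave 6 lower genes and 1 higher. The shares over all genes were not worked out for these scalings or for the lines left out. On the hypoxic arrays 11 genes were lower (background 8.59%), with INCENP at -2.93 past the adjusted threshold (limma adjusted p = 0.031, a share of 0.587% of all genes). The size rests on signals of 27.7 to 31.5 on the 3 SHEP arrays, against 88.9 to 500.7 on the other 8. With signals under 50 set to 50, INCENP was -2.09 and no longer past the threshold (adjusted p = 0.062), whereas TOP2A was (-1.25, adjusted p = 0.029).

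A further probeset that names only the same gene was available for 24 of the 46 genes, and in 9 of these its mean difference had the opposite sign. The pairs were CDC25C (0.15 and -0.13), NEK2 (-0.14 and 0.15), BUB1 (-0.08 and 0.30), CENPF (0.05 and -0.10), NUSAP1, a microtubule-bundling protein (-0.10 and 0.13), ASPM (-0.03 and 0.20), ECT2 (-0.22 and 0.41), TOP2A (0.15 and -0.09) and MKI67 (0.05 and -0.05). For CENPN, whose probesets had the same sign, the further one gave -0.22, and for ANLN -0.01.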

How the data were processed

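Total RNA of 11 neuroblastoma lines in both conditions was hybridised to arrays of the HG-U133 Plus type (Affymetrix). The deposited values are MAS5 signal intensities on a linear scale, which the authors scaled to an average of 500 per array (MAS5 version not given in the sources used here). Each array was divided by its median and log2 taken. Of 54675 probesets, 41091 named 1 gene, 1801 several, and the remaining 11783 none or a control. Each of 19775 genes was read from its brightest single-gene probeset. limma 3.58.1 in R 4.3.3 (lmFit, eBayes, Benjamini-Hochberg over all genes, threshold 0.05) tested hypoxia minus normoxia with cell line as a block, the interaction with SHEP origin, and the normoxic level of SHEP against other lines. Both arrays of a line come from the same line, and their deviations from the condition means correlated at 0.72 to 0.89. Scripts were tested on simulated data. Promoters came from RefSeq. The members and lists were chosen with earlier results of these data known.

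Genes named with values were the 10 of smallest p in hypoxia, 16 chosen by function whatever their values, the leading genes of the interaction, of the SHEP level and of range, those with probesets of opposite sign, and the 2 of smallest p in each list; others were named after their values were seen. Alternatives were other scalings, a floor, a signal filter, all probesets, averaged related lines, lines left out, no block and the methods' t-test, paired by line and without their 2-fold selection.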

Additional observations from a re-analysis of the deposited data

How the results depend on the processing

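With 1 array per line and condition, the precision is limited by the number of lines, and dim probesets such as that of INCENP are limited by background. Without the replicate block for cell line, 0 genes were lower at an unadjusted p under 0.05 in place of 6. Leaving out 1 line at a time gave 4 to 7 such genes, 0 to 0 past the adjusted threshold, a median from -0.14 to -0.06, and 5 to 9 genes lower in all lines but at most 1 (9 without SK-N-SH, 8 without SHEP-2). The methods' t-test (run over all genes, paired by line, without their selection of 2-fold changes) and a floor of 50 each gave 10 lower genes and 1 past the adjusted threshold, and the filter that kept genes with a mean signal of 100 or more gave 1, SPC25 in each case. Genes lower in all lines but at most 1 numbered 2 in the values as deposited and after quantile normalization, 10 with the 3 SHEP lines averaged, 10 with the trio SK-N-SH, GI-LI-N and IMR-32 averaged and 9 without both SHEP21N lines, where fewer lines had to share the sign. In the interaction, the values as deposited gave 10 lower and 5 higher genes and a median of -0.19, quantile normalization 11, 5 and -0.22, and the floor 5 lower. Leaving out 1 line gave 2 to 7 lower genes (7 without SHEP-2 or without SHEP21N labelled with MYCN overexpression), 3 to 10 higher (3 without SHEP21N labelled with MYCN overexpression) and a median from -0.12 to 0.08. For the normoxic level, quantile normalization gave 6 lower and 1 higher gene, the values as deposited 1 higher, the floor 3 past the adjusted threshold (UBE2C, CENPA and CDK1), the filter and the mean of all probesets 1 each (UBE2C), and the 11 hypoxic arrays, chosen after seeing the data, 1 (INCENP), and with the floor as well 18 lower genes and 1 past the adjusted threshold (TOP2A). Leaving out 1 line gave 5 to 18 lower genes (18 without ACN), 0 to 2 past the adjusted threshold (UBE2C and FOXM1 without ACN) and a median from -0.72 to -0.49. Signs turned for TPX2 and ASPM in the values as deposited (0.0171 and 0.00265) and after quantile normalization (0.0188 and 0.0185). With the mean of all probesets they turned for NEK2 (0.00531), CENPF (-0.18), NUSAP1 (0.0147) and ASPM (0.17), with the SHEP lines averaged for UBE2C (-0.10), AURKB (-0.11) and ASPM (0.0250), and without both SHEP21N lines for PLK1 (-0.11), UBE2C (-0.14), AURKB (-0.18), CENPA (-0.0213) and ASPM (0.0514). Leaving out 1 line turned FOXM1 (-0.15 to 0.0280), PLK1 (-0.0335 to 0.33), UBE2C (-0.0886 to 0.11), AURKB (-0.14 to 0.27), BIRC5 (-0.17 to 0.0391), KIF23 (-0.13 to 0.00329), TPX2 (-0.0894 to 0.0483) and ASPM (-0.0602 to 0.0326). The cause of these shifts was not tested. For most settings of this section the share over all genes was not worked out, so such counts of members have no background beside them.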
